A study of Mus musculus with 27 samples.

Results

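NF-κB transcription factors are dimers built from 5 subunits, encoded by Rela (p65), Rel (c-Rel), Relb, Nfkb1 (p105, processed to p50) and Nfkb2 (p100, processed to p52), and they are held in check by IκB proteins. The genes described here are these 5 subunit genes and 5 IκB genes: the classical inhibitors Nfkbia (IκBα), Nfkbib (IκBβ) and Nfkbie (IκBε), and the nuclear, atypical proteins Nfkbid (IκBNS) and Nfkbiz (IκBζ). Membership is set by gene symbol alone, a rule that uses no measured value, and the members are 10 of the 45070 genes in the table. The members were, however, chosen with earlier results of these data known. All 10 had a row and all 10 passed the filter on low values (10 or more normalised read counts in 3 or more samples), which 13901 genes passed.

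In resting macrophages most NF-κB is kept in the cytoplasm by classical IκB proteins. Lipopolysaccharide (LPS), sensed by the receptor TLR4, activates the IκB kinases, which mark the classical inhibitors for degradation and release the dimers to the nucleus. Several subunit and inhibitor genes are themselves NF-κB targets, so that the pathway resupplies its own components, while the atypical proteins act on dimers already bound to chromatin. Interleukin-4 (IL-4) signals instead through its receptor and the transcription factor STAT6.

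Primary macrophages (BMDMs) were used, cells grown from the marrow of wild-type male C57/BL6 mice aged 6 to 8 weeks, and all samples were first kept for 1 h in DMSO, the solvent used for kinase inhibitors elsewhere in the study. Untreated cells formed a single group, set at 0 h, and all others received LPS or IL-4, each at a dose of 10 ng/ml. Stimulated cells were collected after 0.5, 1, 2 or 4 h. The samples include no untreated cells at these later times, so the part of time in culture in the changes from untreated was not tested. The 9 groups had 3 replicates each, 27 samples in all, and RNA bound to chromatin was sequenced, which is rich in transcripts still being made and in introns. Values are read counts per gene that the authors had normalised and rounded, so changes are changes in chromatin-bound RNA and not in messenger RNA or protein.

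The sum of normalised read counts was 2469768 to 2790981 without LPS and 3571492 to 4058199 in the LPS samples, and because the values were scaled these sums are not sequencing depths. All 8 macrophage markers examined (Adgre1, Csf1r, Cd68, Itgam, Mertk, Fcgr1, Lyz2 and Spi1) passed the filter, with summed values of 10027 to 11141 in untreated, 11122 to 19679 in LPS and 10976 to 14044 in IL-4 samples. The markers did not move together: Csf1r averaged 1971 untreated and 456 at LPS 2 h, while Spi1 averaged 475 and 1537. None of the neutrophil, T cell, B cell, mast cell or erythroid markers passed it, and Ly6g, Cd3e, Cd3g, Mcpt4, Fcer1a, Hbb-bs and Hba-a1 were listed at 0 in every sample. The exceptions among other cell types were Flt3 and Zbtb46 of 5 dendritic cell markers, whose list summed to 6 to 9 in untreated, 5 to 100 in LPS and 11 to 24 in IL-4 samples, and Col1a1 and Col1a2 of 5 fibroblast markers, whose list summed to 37 to 89, 33 to 218 and 28 to 209. The part of these lists in the results was not tested. In bulk samples, fewer cells of a type and less RNA per cell cannot be told apart.

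Replicates 2 and 3 lay closer to each other than to replicate 1 in every group. Over the 6827 genes whose mean was 50 or more, the SD of the log2 ratio was 0.211 to 0.309 between replicates 2 and 3, and 0.475 to 0.600 between replicates 1 and 2. Nothing in the labels says that the replicates came from separate animals or cultures, so the p-values measure only the spread between these samples. Calls that were lost without one of them, which leaves 2 samples a group, are given with the size of the change without it.

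Promoter sequences were available from RefSeq (GRCm38.p6) for 7 of the 10 genes, as 11 windows from 250 bases before to 50 bases after an annotated start. The κB consensus, the decamer that NF-κB dimers bind (3 G, a purine, any base, A or T, 2 pyrimidines and 2 C, read on both strands), occurred in 7 of the 11 windows and in 5 of the 7 genes, against 4.51% of all 32851 windows in the table. A letter match is a description and not a measured site. The STAT palindrome (TTC and GAA separated by any 4 bases) occurred in 6.95% of all windows and in 0 of the 11 here.

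Shown here is 1 window of each gene with a match, and that of Nfkbib, a gene that rose early and had none. Capitals mark κB consensus matches on either strand, and adjoining capitals include overlapping matches. They lie at chr12:55492598-55492897 on the minus strand (Nfkbia), chr19:46304487-46304786 on the plus strand (Nfkb2, the first of 3 annotated starts), chr11:23770920-23771219 on the minus strand (Rel), chr17:45555450-45555749 on the plus strand (Nfkbie), chr7:30422156-30422455 on the plus strand (Nfkbid, the second of 3 starts) and chr7:28766595-28766894 on the minus strand (Nfkbib), and each is written 5′ to 3′ along its gene.
Nfkbia: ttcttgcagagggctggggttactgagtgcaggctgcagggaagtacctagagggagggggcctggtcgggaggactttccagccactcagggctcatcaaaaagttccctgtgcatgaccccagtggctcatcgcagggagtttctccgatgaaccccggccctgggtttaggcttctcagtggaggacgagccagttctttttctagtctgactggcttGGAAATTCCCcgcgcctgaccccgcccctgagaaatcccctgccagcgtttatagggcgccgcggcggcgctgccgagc
Nfkb2: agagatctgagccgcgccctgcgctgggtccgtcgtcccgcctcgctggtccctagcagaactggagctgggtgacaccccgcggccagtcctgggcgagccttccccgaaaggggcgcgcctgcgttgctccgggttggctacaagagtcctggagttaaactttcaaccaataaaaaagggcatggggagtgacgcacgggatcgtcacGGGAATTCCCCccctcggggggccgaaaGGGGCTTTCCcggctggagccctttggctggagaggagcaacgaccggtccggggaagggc
Rel: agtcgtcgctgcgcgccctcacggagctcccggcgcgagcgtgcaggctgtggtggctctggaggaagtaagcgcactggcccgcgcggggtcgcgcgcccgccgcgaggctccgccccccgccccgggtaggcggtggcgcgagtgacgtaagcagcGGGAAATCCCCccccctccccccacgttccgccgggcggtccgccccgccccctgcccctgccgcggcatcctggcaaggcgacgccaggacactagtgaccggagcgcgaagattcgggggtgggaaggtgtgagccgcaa
Nfkbie: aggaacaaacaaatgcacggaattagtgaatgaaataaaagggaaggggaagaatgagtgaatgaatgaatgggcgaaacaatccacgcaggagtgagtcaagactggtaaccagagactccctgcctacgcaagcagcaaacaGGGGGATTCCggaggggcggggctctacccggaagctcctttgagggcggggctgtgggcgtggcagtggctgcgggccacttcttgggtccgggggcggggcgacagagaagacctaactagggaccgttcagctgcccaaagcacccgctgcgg
Nfkbid: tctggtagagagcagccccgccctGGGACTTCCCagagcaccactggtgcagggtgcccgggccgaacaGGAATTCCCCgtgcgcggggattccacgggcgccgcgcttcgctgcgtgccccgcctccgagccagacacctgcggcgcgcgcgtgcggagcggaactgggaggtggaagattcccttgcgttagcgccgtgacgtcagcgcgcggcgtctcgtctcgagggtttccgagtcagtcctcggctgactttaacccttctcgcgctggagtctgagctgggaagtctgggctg
Nfkbib: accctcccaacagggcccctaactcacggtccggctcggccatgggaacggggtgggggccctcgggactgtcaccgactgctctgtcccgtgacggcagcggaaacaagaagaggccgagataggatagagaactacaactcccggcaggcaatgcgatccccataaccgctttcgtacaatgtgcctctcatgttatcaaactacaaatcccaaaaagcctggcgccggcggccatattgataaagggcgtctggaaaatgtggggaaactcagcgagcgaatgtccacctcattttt
The Nfkbia match, GGAAATTCCC read on the opposite strand, spans bases -29 to -20 from the start. Nfkb2 has GGGAATTCCC at -39 to -30, a palindrome that matches on both strands, a further match overlapping it, and GGGGCTTTCC at -11 to -2. The Rel match GGGAAATCCC starts at -92, the Nfkbie match GGGGGATTCC at -106, and the Nfkbid matches at -226 and -181. The Rela window held none either.

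After LPS, chromatin-bound RNA of all 10 genes changed over the course (limma F test, Benjamini-Hochberg adjusted p between 4.67e-14 for Nfkbiz and 7.60e-09 for Rela), and the largest change was a rise in each. Such a test was passed by 87.6% of all tested genes, and by 32.9% with a rise as the largest change, so passing alone says little and the sizes matter more. All 10 were higher than untreated after 0.5 h, where 19.6% of tested genes were, after 1 h (24.8%) and after 2 h (26.9%), and 9 were higher after 4 h (25.9%), the exception being Nfkbid. The median tested gene was at -0.24, -0.30, -0.29 and -0.26 on the log2 scale at the 4 times, so that values near 0 are above the median. All 3 samples lay above all untreated samples for all 10 genes at the first 3 LPS times and for 9 at the last, as they did in turn for 23.1%, 27.3%, 28.4% and 27.8% of tested genes. All log2 changes are differences of log2(normalised read count + 1), which understate the change of low genes.

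**Figure D1:**
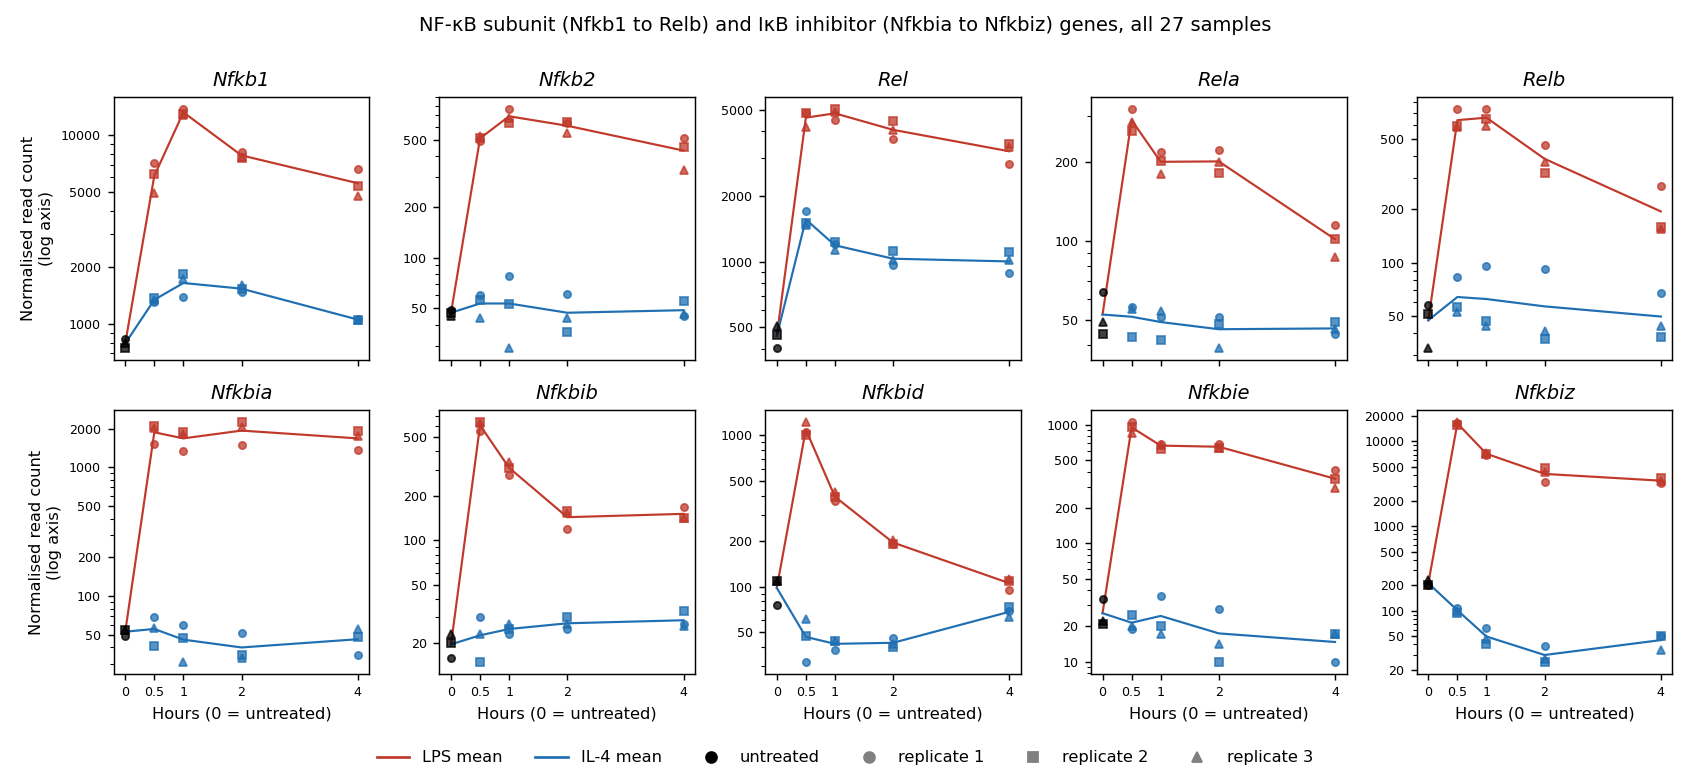
Normalised read count on a log axis against hours (0 is untreated) for the 10 genes in all 27 samples. Points are samples, shaped by replicate number, and lines join group means (red LPS, blue IL-4). With IL-4, Rel and Nfkb1 lie above and Nfkbiz and Nfkbid below untreated at every time.

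Among the subunits, Nfkb1 had the largest fold rise, and like Nfkb2 it was still rising after 0.5 h. Its counts were 835, 748 and 791 in untreated cells, 7157, 6207 and 4949 after 0.5 h, 13855, 13025 and 12851 after 1 h, 8163, 7628 and 7713 after 2 h and 6619, 5374 and 4747 after 4 h. Every LPS sample lay above every untreated one, and the 3 samples at 1 h above all the others. The change at 1 h was 4.06 ± 0.14 (SE; adjusted p = 2.27e-12). Nfkb1 (chromosome 3, 135584655 to 135691547, minus strand) overlaps the non-coding gene Gm46827 on the other strand by 5234 bases. Gm46827 averaged 41.3 in untreated cells and 725 at LPS 1 h, and whether strand was used in counting was not stated, so reads of the overlap could be assigned to either.

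Nfkb2, whose product p100 also acts as an inhibitor until it is processed, also had its highest mean at 1 h. Its counts were 49, 47 and 45 untreated, 494, 514 and 525 after 0.5 h, 767, 634 and 671 after 1 h, 634, 639 and 547 after 2 h, and 511, 454 and 331 after 4 h. All LPS samples were above untreated, and the 1 h and 2 h ranges overlapped. The change was largest at 1 h, 3.85 ± 0.14 (adjusted p = 6.35e-12). Nfkb2 (chromosome 19, 46304737 to 46312090, plus strand) overlaps the opposite-strand genes 4833438C02Rik by 893 bases and Psd by 6 bases, and 4833438C02Rik stood at 22.0 untreated and 125 at LPS 0.5 h.

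Rel, the subunit c-Rel, rose at once and stayed high. Counts were 402, 461 and 508 untreated, 4814, 4832 and 4156 after 0.5 h, 4493, 5063 and 4892 after 1 h, 3658, 4429 and 4049 after 2 h, and 2811, 3483 and 3375 after 4 h. The ranges at 0.5 and 1 h overlapped and those at 1, 2 and 4 h did not, and at 4 h the mean was still 66.9% of that at 1 h. The change at 1 h was 3.40 ± 0.12 (adjusted p = 4.47e-12) and at 4 h 2.82 ± 0.12.

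Rela, which encodes the transactivating subunit p65, had the smallest maximum of the 10 genes. Counts were 64, 44 and 49 untreated, 319, 262 and 284 after 0.5 h, 218, 202 and 180 after 1 h, 221, 181 and 200 after 2 h and 115, 102 and 87 after 4 h. Every LPS sample was above untreated, with the highest values at 0.5 h and the lowest at 4 h. The change was 2.45 ± 0.16 at 0.5 h (adjusted p = 6.53e-09) and 0.95 ± 0.16 at 4 h (adjusted p = 9.20e-05). When the samples were rescaled to equal totals the 4 h value was 0.35 and no longer passed (adjusted p = 0.0595).

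Relb, the subunit that pairs mainly with p52 and p50, was high at 0.5 and 1 h and then fell back. Counts were 58, 51 and 33 untreated, 735, 586 and 585 after 0.5 h, 738, 642 and 588 after 1 h, 463, 322 and 369 after 2 h, and 271, 158 and 154 after 4 h. The first pair of times overlapped fully, and replicate 1 was the highest sample in every group. The change was 3.80 ± 0.23 at 1 h (adjusted p = 1.87e-09) and 2.00 ± 0.23 at 4 h (adjusted p = 1.82e-06).

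Among the classical inhibitors, Nfkbia, whose protein is the main fast inhibitor that is degraded and resupplied, rose to a range shared by all 4 times. Counts were 49, 55 and 55 untreated, 1521, 2081 and 2006 after 0.5 h, 1340, 1868 and 1823 after 1 h, 1490, 2236 and 2056 after 2 h and 1365, 1904 and 1762 after 4 h. All LPS times overlapped one another, and replicate 1 was the lowest sample at each. The changes were 5.10, 4.94, 5.14 and 4.95 (each ± 0.18), and the 3 steps between successive times were -0.16, 0.20 and -0.19 with adjusted p of 0.493, 0.421 and 0.506. Without replicate 1 the last 2 of these passed, at 0.22 (adjusted p = 0.0415) and -0.23 (0.0496).

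Nfkbib, the gene of IκBβ, rose early and lost most of the rise by 2 h. Counts were 16, 20 and 23 untreated, 548, 631 and 628 after 0.5 h, 279, 309 and 341 after 1 h, 119, 157 and 154 after 2 h and 169, 142 and 142 after 4 h. The 0.5 h and 1 h samples did not overlap any other time, while 2 h and 4 h overlapped. The change was 4.88 ± 0.16 at 0.5 h (adjusted p = 1.69e-12) and 2.81 ± 0.16 at 2 h. Nfkbib (chromosome 7, 28758251 to 28766644, minus strand) overlaps Ccer2 on the other strand by 715 bases, and Ccer2 was at 2.00 untreated and 43.7 at LPS 0.5 h, far below the Nfkbib counts.

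Nfkbie, the gene of IκBε, rose at once and declined in 2 steps. Counts were 34, 21 and 22 untreated, 1047, 953 and 846 after 0.5 h, 693, 624 and 680 after 1 h, 683, 633 and 637 after 2 h and 411, 347 and 291 after 4 h. The 1 h and 2 h samples overlapped, and 0.5 h and 4 h lay apart on either side of them. The change was 5.18 ± 0.17 at 0.5 h (adjusted p = 1.70e-12) and 3.74 ± 0.17 at 4 h.

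The atypical inhibitors, like Nfkbib, Nfkbie and Rela, had their highest LPS mean at 0.5 h. Nfkbiz, whose product IκBζ serves as a coactivator at secondary response genes, stood at 199, 202 and 233 untreated, 16281, 15807 and 16819 after 0.5 h, 6957, 7138 and 7330 after 1 h, 3277, 4787 and 4333 after 2 h and 3243, 3694 and 3373 after 4 h. The 0.5 h samples lay above all others and the 2 h and 4 h samples overlapped. This was the largest change of the 10 genes, 6.27 ± 0.13 or 77.0-fold (adjusted p = 2.34e-14), and 4.02 ± 0.13 remained at 4 h.

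Nfkbid, whose product IκBNS binds p50 in the nucleus, was the gene whose rise did not last. Its counts were 76, 109 and 110 untreated, 1057, 1001 and 1220 after 0.5 h, 370, 389 and 421 after 1 h, 192, 191 and 205 after 2 h and 95, 109 and 113 after 4 h. The 4 LPS times did not overlap one another, and the 4 h samples overlapped the untreated ones. The change was 3.48 ± 0.14 after 0.5 h, 2.01 ± 0.14 after 1 h, 1.01 ± 0.14 after 2 h and 0.12 ± 0.14 after 4 h (adjusted p = 0.490, 95% interval -0.19 to 0.43). The direction at 4 h depended on the scaling, being 0.36 (adjusted p = 0.0276) with median-of-ratios factors and -0.48 (adjusted p = 0.00690) with equal totals.

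**Figure D2:**
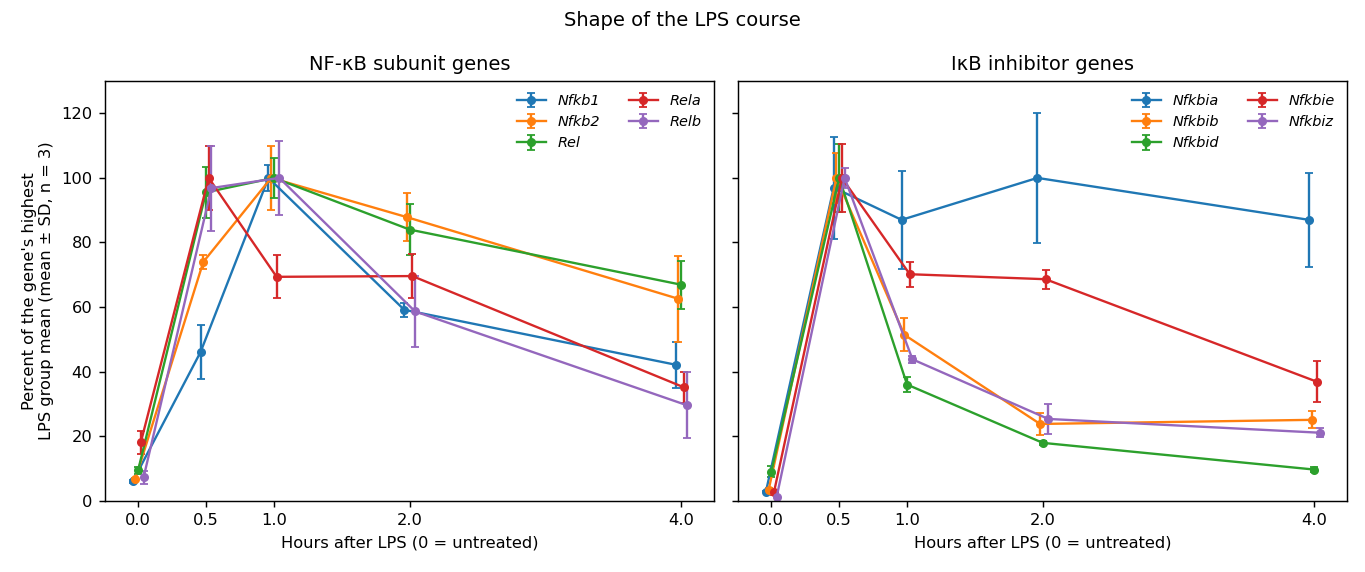
Mean of each LPS group as a percent of the gene's highest LPS group mean (± SD, n = 3) against hours, subunit genes on the left and inhibitor genes on the right. Nfkb1 was at 46.1% of its maximum at 0.5 h when most other genes were at or near theirs, and at 4 h the genes ranged from 9.67% (Nfkbid) to 87.0% (Nfkbia).

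The steps between successive LPS times separated the genes further. From 0.5 to 1 h, 7 of the 10 genes passed (49.7% of tested genes did): Nfkb1 rose by 1.13 and Nfkb2 by 0.43, and Rela (-0.53), Nfkbie (-0.51), Nfkbib (-0.96), Nfkbiz (-1.19) and Nfkbid (-1.47) fell. From 1 to 2 h, 5 passed (43.3%), all with a fall: Nfkb1 (-0.76), Relb (-0.78), Nfkbiz (-0.81), Nfkbid (-1.0) and Nfkbib (-1.11). From 2 to 4 h, 6 passed (22.9%), again with a fall: Nfkb1 (-0.50), Nfkb2 (-0.51), Nfkbid (-0.89), Nfkbie (-0.91), Rela (-0.98) and Relb (-1.02). Nfkb1 and Nfkbid passed at all 3 steps.

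Several of these calls changed with the samples or the fit used, often with little change in size. Without replicate 2, the first step no longer passed for Nfkb2 (0.49, adjusted p = 0.109), Rela (-0.60, 0.0627) and Nfkbie (-0.45, 0.180), the next for Relb (-0.67, 0.167), and the last for Nfkb1 (-0.50, 0.213), Nfkb2 (-0.52, 0.191) and Relb (-1.01, 0.0928). Without replicate 3, calls were lost for Rela (-0.46, 0.148) and Nfkbie (-0.60, 0.0614) at the first step, and at the last for Nfkb1 (-0.40, 0.181), Nfkb2 (-0.40, 0.164), Nfkbie (-0.80, 0.0562) and Relb (-0.90, 0.0807). Without replicate 1, Nfkb2 was lost at the first step (0.33, 0.0535), and Nfkbiz passed at the last (-0.37, 0.00667). With all 27 samples in one fit, Nfkb2 and Nfkbie were lost at the first step (0.128 and 0.134) and Nfkb2 at the last (0.116), and Relb from 1 to 2 h was at the threshold (0.05). With no filter on low values, Nfkbie at the first step (0.0562) and Relb at the next (0.0541) were lost. The Rel steps of -0.25 from 1 to 2 h and -0.33 from 2 to 4 h (adjusted p = 0.108 and 0.0642) passed when replicate number was a block (0.0358 and 0.0138) and without replicate 1 (0.0457 and 0.0196).

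With IL-4, 4 of the 10 genes changed over the course, against 40.3% of all tested genes. They were 2 subunit genes with a rise, Rel and Nfkb1 (19.4% of tested genes had a rise), and the 2 atypical inhibitors with a fall, Nfkbiz and Nfkbid (20.9% had a fall). The numbers passing were 4 after 0.5 h (16.3%), 4 after 1 h (21%), 4 after 2 h (27.6%) and 3 after 4 h (25.9%). In turn, 2, 2, 3 and 3 genes had all samples above untreated (13%, 16.9%, 20.5% and 19.1% of tested genes) and 2, 2, 2 and 3 had all below (15.2%, 16.2%, 19.2% and 16.9%). The median tested gene stayed within -0.02 to 0.02 on the log2 scale at the 4 times.

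Rel was the IL-4 gene with the largest rise. Its counts were 1713, 1508 and 1481 after 0.5 h, 1214, 1229 and 1134 after 1 h, 963, 1119 and 1021 after 2 h and 885, 1108 and 1022 after 4 h, against 402, 461 and 508 in untreated cells. All 12 IL-4 samples lay above untreated, and the 0.5 h samples above the later ones. The changes were 1.78, 1.39, 1.18 and 1.14 (each ± 0.10; adjusted p = 1.15e-07 at 0.5 h and 2.87e-06 at 4 h), so that the rise was 3.43-fold at the first time and 2.20-fold at the last.

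Nfkb1 rose too, with its highest mean at 1 h. Its counts were 1309, 1384 and 1348 after 0.5 h, 1391, 1835 and 1733 after 1 h, 1473, 1538 and 1617 after 2 h and 1064, 1059 and 1052 after 4 h. All lay above the untreated range of 748 to 835, and the 4 h samples below those of the other IL-4 times. The changes were 0.77, 1.05, 0.96 and 0.42 (each ± 0.09; adjusted p = 1.40e-06 at 1 h and 0.00332 at 4 h), and the last did not pass without replicate 2 (0.38, adjusted p = 0.0875) or 3 (0.43, 0.0947), at about the same size. Gm46827, which overlaps it, ranged from 30 to 797 over all samples, a range that includes the LPS samples (mean 725 at LPS 1 h). IL-4 values of Gm46827 are not given here, and its part in the IL-4 rise of Nfkb1 was not tested.

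Nfkbiz had the largest IL-4 change of the 10 genes. Its counts were 109, 95 and 100 after 0.5 h, 62, 40 and 47 after 1 h, 38, 25 and 27 after 2 h and 50, 51 and 34 after 4 h, against 199, 202 and 233 in untreated cells. Every IL-4 sample lay below every untreated one, with the lowest values at 2 h. The changes were -1.05, -2.09, -2.80 and -2.23 (each ± 0.20), and at 2 h the level was 6.94-fold lower (adjusted p = 2.06e-07). The 0.5 h change passed at 0.00206, and did not without replicate 2 (-1.04, adjusted p = 0.0592) or 3 (-0.97, 0.0695), at about the same size.

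Nfkbid fell too, by less. Its counts were 32, 47 and 61 after 0.5 h, 38, 44 and 44 after 1 h, 46, 40 and 42 after 2 h and 69, 73 and 63 after 4 h, against 76, 109 and 110 untreated. All 12 samples lay below untreated, and those at 4 h above the other IL-4 times. The changes were -1.09, -1.19, -1.17 and -0.50 (each ± 0.20; adjusted p = 0.00199, 0.000721, 0.000665 and 0.0907). When replicate number was a block the 4 h change passed (0.0425), as it did without replicate 1 (-0.68, 0.00655). Without replicate 2 the F test for the course gave an adjusted p of 0.108 and the changes at 0.5, 1 and 2 h did not pass either (0.117, 0.0622 and 0.0653), while their sizes, -1.03, -1.14 and -1.04, moved little.

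The other 6 genes did not pass the IL-4 course test. Rela stood at 56, 43 and 55 after 0.5 h, 51, 42 and 54 after 1 h, 51, 48 and 39 after 2 h and 44, 49 and 46 after 4 h, overlapping the untreated 64, 44 and 49 at each time. Its 95% interval at 2 h, the largest change, was -0.54 to 0.19 (F test adjusted p = 0.846). Nfkb2 stood at 60, 56 and 44, then 78, 53 and 29, then 61, 36 and 44, and at 4 h 45, 55 and 46. The Nfkb2 interval at 0.5 h, the largest change, was -0.45 to 0.78 (F test adjusted p = 0.975). Both are low in these samples, and all IL-4 ranges of Nfkb2 overlapped untreated.

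Relb stood at 83, 56 and 53 after 0.5 h, 96, 47 and 44 after 1 h, 92, 37 and 41 after 2 h and 67, 38 and 44 after 4 h. Replicate 1 was above replicates 2 and 3 at each of these times, and the interval at 0.5 h was wide, -0.38 to 1.25 (F test adjusted p = 0.825).

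Nfkbia stood at 69, 41 and 57 after 0.5 h, 60, 47 and 31 after 1 h, 52, 35 and 33 after 2 h and 35, 48 and 56 after 4 h, overlapping untreated throughout. The 2 h change was -0.42 (95% interval -0.99 to 0.15, adjusted p = 0.271), and without replicate 1 it was -0.68 (0.0415). All 12 IL-4 samples lay below the lowest LPS sample of this gene, at 1340.

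Nfkbib stood at 30, 15 and 23 after 0.5 h, 23, 25 and 27 after 1 h, 25, 30 and 27 after 2 h and 27, 33 and 26 after 4 h. The samples at 2 h and 4 h lay above the untreated 16, 20 and 23, with changes of 0.47 and 0.53 (adjusted p = 0.151 and 0.108). Nfkbie stood at 19, 25 and 20 after 0.5 h, 36, 20 and 17 after 1 h, 28, 10 and 14 after 2 h and 10, 17 and 17 after 4 h. The 4 h samples lay below the untreated 34, 21 and 22, with a change of -0.77 (95% interval -1.56 to 0.02, adjusted p = 0.149). The 2 h change of Nfkbie was -0.63 (adjusted p = 0.236) and passed without replicate 1 at -0.81 (0.0274).

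**Figure D3:**
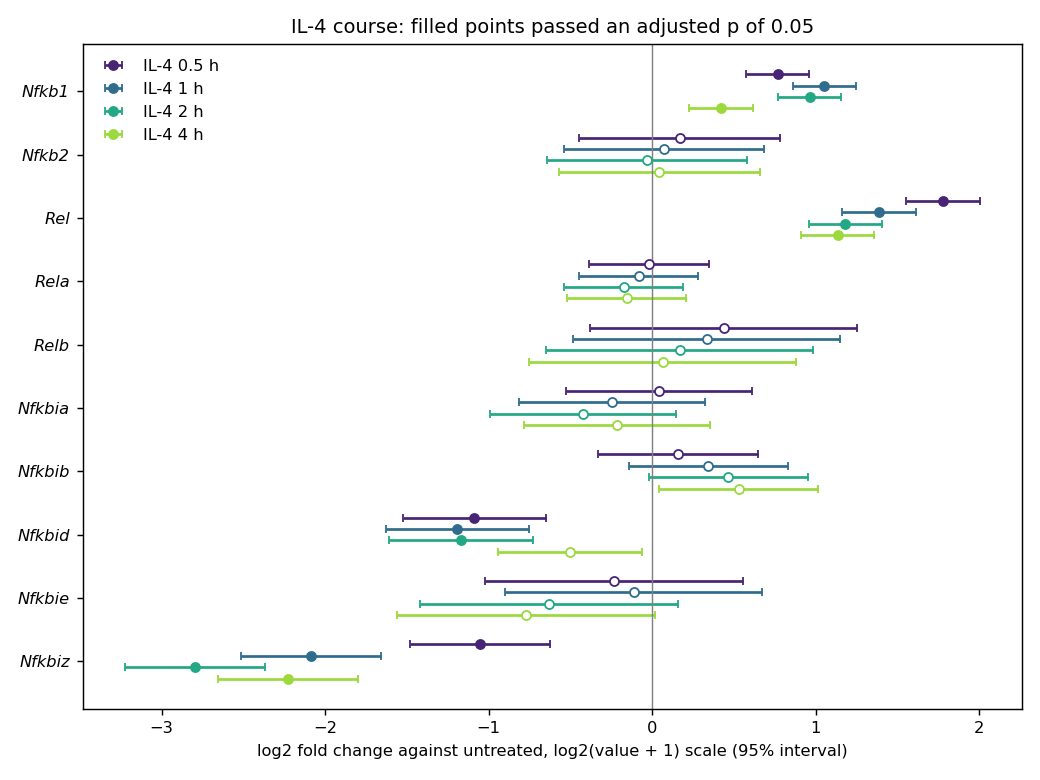
Change from untreated on the log2 scale at the 4 IL-4 times for each gene, with the unadjusted 95% interval of the limma contrast. Filled points passed an adjusted p of 0.05, which only Rel and Nfkb1 (to the right) and Nfkbiz and Nfkbid (to the left) did, Nfkbid not at 4 h.

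The direct comparison of the stimuli, fitted over all 27 samples, found all 10 genes higher with LPS than with IL-4 at each of the 4 times. The shares of tested genes higher with LPS were 18% after 0.5 h, 24% after 1 h, 26.4% after 2 h and 26.1% after 4 h. The difference was largest for Nfkbiz at each time (7.32 ± 0.17 at 0.5 h and 6.24 ± 0.17 at 4 h), a gene that rose with LPS and fell with IL-4. At 0.5 h it was smallest for Rel, 1.55 ± 0.11 (adjusted p = 3.60e-11), the gene with the largest rise in IL-4. At 4 h it was smallest for Nfkbid, 0.62 ± 0.17 (adjusted p = 0.00248), and this call was lost with equal totals (0.00, adjusted p = 0.985).

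The difference between stimuli changed from 0.5 to 4 h for 5 of the 10 genes (53.6% of tested genes). It narrowed by the most for Nfkbid, from 4.56 to 0.62, a change of -3.94 ± 0.24 (adjusted p = 1.92e-12), and then for Nfkbib, from 4.72 to 2.36. Rela and Relb both narrowed by 1.37, and Nfkbiz by 1.07. For Nfkbie the change of -0.91 did not pass (adjusted p = 0.0593) but did when replicate number was a block (0.0264) and without replicate 1 (-1.12, 0.000288), and for Relb the call was lost without replicate 2 (-1.39, 0.0977) or 3 (-1.23, 0.130). Nfkb1, Nfkb2, Rel and Nfkbia changed by 0.22, -0.14, 0.13 and 0.10, with 95% intervals of -0.13 to 0.57, -0.83 to 0.55, -0.20 to 0.45 and -0.60 to 0.79.

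**Figure D4:**
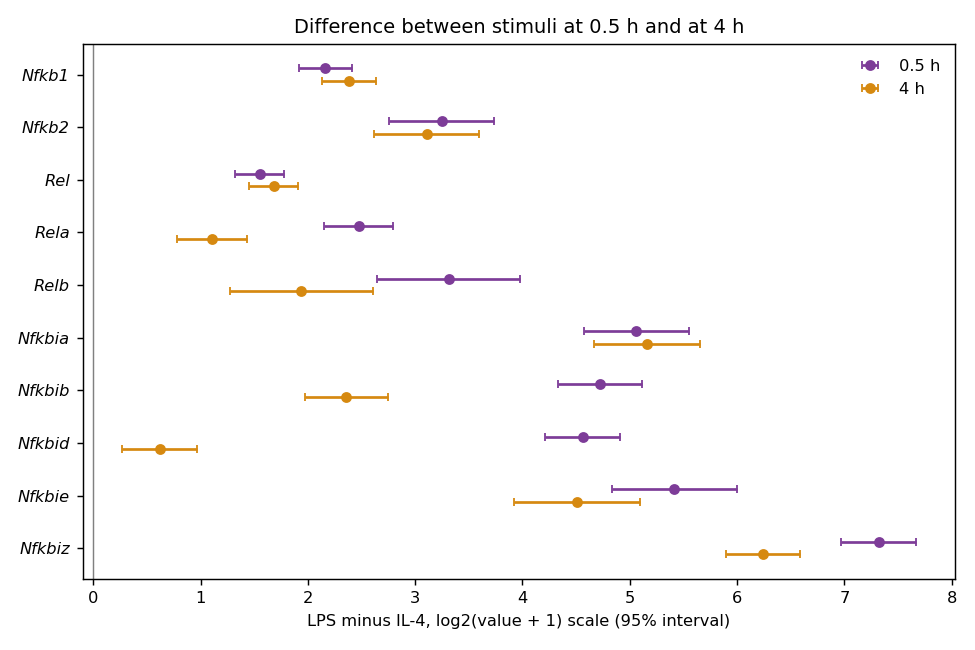
LPS minus IL-4 on the log2 scale at 0.5 h (purple) and 4 h (orange) with 95% intervals, fitted over all 27 samples. All points lie to the right of 0, and the gap between the colours is widest for Nfkbid (4.56 against 0.62) and Nfkbib (4.72 against 2.36).

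Levels of different genes can be set side by side only per length, and the order depended on which length was used, since chromatin-bound RNA holds introns. Per kilobase of gene span, the untreated means were 16.4 for Nfkbia, 14.0 for Nfkbid and 13.4 for Rel, then 7.75 for Nfkbiz and 7.40 for Nfkb1, and Relb was lowest at 2.04. Per kilobase of exon, Nfkb1 was highest at 192, followed by Rel at 61.2, and Nfkbib was lowest at 9.25. At LPS 0.5 h Nfkbiz (598) and Nfkbia (577) led per kilobase of span, and Nfkbiz (4204) led per kilobase of exon. Together the 10 genes held 0.0689% to 0.0725% of all normalised read counts in untreated samples, 0.896% to 0.925% at LPS 0.5 h, 0.377% to 0.404% at LPS 4 h, and 0.0930% to 0.127% with IL-4.

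The wider pathway was described by 5 lists holding 53 symbols, of which 52 were in the table and all of these were tested. Over the LPS course 49 of the 52 changed (87.6% of tested genes did), 30 with a rise (32.9%) and 19 with a fall (54.7%), and the median of the largest changes was 1.26 against -1.0 over all tested genes. Over the IL-4 course 24 changed (40.3% of tested genes), 13 with a rise (19.4%) and 11 with a fall (20.9%), with a median of -0.14 against -0.16. The IL-4 count was 13 without replicate 2 and 14 without replicate 3. The counts for each list stand against the same shares of all tested genes. In all these counts the direction is that of a gene's largest change over the course, and some genes passed both ways. Tirap, counted as a fall, was at -1.58 at LPS 0.5 h and 1.26 at LPS 2 h. Tnfrsf11a, counted as a rise, was at -1.53 at LPS 0.5 h and 2.11 at LPS 1 h.

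Of 12 receptors and adaptors, all 12 changed with LPS, 8 upwards, and 6 with IL-4, 2 upwards. Cd40, a TNF receptor family member, rose by 7.09 ± 0.20 at LPS 2 h, from 38.0 ± 9.54 to 5216 ± 267 counts (SD, n = 3), and IL-4 raised it by 3.13 ± 0.25 at 2 h. Cd14, the co-receptor that hands LPS to TLR4, rose by 3.81 ± 0.18 at LPS 0.5 h. Of 10 IRAK, TRAF and IAP genes, 9 changed with LPS, 8 upwards, led by Traf1, a TRAF adaptor, which rose by 8.39 ± 0.26 at 4 h from 5.00 ± 2.65 to 1856 ± 171 counts, and Birc3, the ubiquitin ligase cIAP2, which rose by 3.21 ± 0.11 at 0.5 h. With IL-4, 3 of the 10 changed, and Irak2, a kinase of the MYD88 complex, fell by 1.16 at 1 h.

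All 9 TAK1 and IKK genes changed with LPS, 3 upwards and 6 downwards, with a list median of -0.57. Tab1, a TAK1 partner, was at -2.39 ± 0.19 at 1 h, and Map3k14, the kinase NIK of the non-canonical arm, at -2.38 ± 0.18 at 4 h. With IL-4, 5 of the 9 changed, and Map3k8, the kinase TPL2 that is bound by p105, rose by 1.66 ± 0.09 at 2 h. Of 5 subunits of the IκB ubiquitin ligase, 4 changed with LPS: the F-box genes Fbxw11 and Btrc moved apart, by 2.60 ± 0.14 and -1.55 ± 0.14 at 1 h. With IL-4, 2 of these 5 rose, and the larger, Rbx1 (0.51 ± 0.13 at 4 h), did not pass without replicate 2 (0.47, adjusted p = 0.0944) or 3 (0.60, 0.0910).

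Of 16 feedback and nuclear regulators, 15 changed with LPS, 9 upwards, and 8 with IL-4, 5 upwards. Tnfaip3, the ubiquitin-editing enzyme A20, rose by 7.78 ± 0.20 at LPS 0.5 h, from 21.0 ± 6.56 to 4691 ± 209 counts. Tnip3, an A20-binding protein, rose by 6.65 ± 0.29 with LPS (4 h) and by 2.59 ± 0.12 with IL-4 (0.5 h). Bcl3, an IκB-like nuclear protein of the same list, is named after its values were seen: it rose by 2.94 ± 0.12 at LPS 2 h, and with IL-4 it was at -1.42 ± 0.28 at 0.5 h (adjusted p = 0.00285) and -0.12 at 4 h (adjusted p = 0.803). Its IL-4 counts at 0.5 h, 24 to 29, lay below the untreated 72 to 75.

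By pattern over the 9 group means, 9 of the genes were also set beside the 3 protein-coding genes with a mean of at least 50, other than the members and any gene overlapping it, that resembled each most. The measure was Pearson's r of the log2 group means, which all share the split between LPS and other samples and are given as a description. It compares the shape of a pattern and not the size of the change. Nfkbia was most like Cflar (r = 0.998), the caspase-8 regulator cFLIP, Tnf (0.996) and Vcam1 (0.996), and Nfkb2 like Cflar (0.997), Vcam1 (0.996) and Stx11 (0.994). Nfkbiz was most like Cybb (0.995), which encodes the NADPH oxidase subunit NOX2, Dusp1 (0.993) and Mapkapk2 (0.992), all of which stood lower at IL-4 2 h than untreated. Nfkbid was most like Kctd12 (0.994), which went from 145 untreated to 1766 at LPS 0.5 h, 178 at LPS 4 h and 70.7 at IL-4 1 h, then Ninj1 (0.986) and Sqstm1 (0.984). Of the other genes, 5 were nearest to Sdc4 (Rel, 0.984), Dyrk2 (Nfkb1, 0.981), Gtf2b (Rela, 0.995), Cdc42 (Nfkbib, 0.989) and Psd (Nfkbie, 0.995), the last of which overlaps Nfkb2 by 6 bases. Sizes could differ: Cdc42 averaged 808 untreated and 1558 at LPS 0.5 h, against 19.7 and 602 for Nfkbib.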

How the data were processed

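Chromatin-associated RNA was measured in 27 BMDM samples (9 groups of 3). The authors prepared Smart-seq2 libraries with random primers, aligned reads to mm10 with TopHat2 2.1.1, removed multi-mapping and blacklisted reads, counted reads per RefSeq gene (GRCm38.p6), scaled the samples on invariant genes, and deposited normalised read counts rounded to whole numbers, treated here as a score and not as raw counts. Bedtools 2.29.2, DESeq2 and R 3.6.2 are also named in the submitters' processing notes. Sequencing depth is unknown from scaled values, so the error used is the spread between replicates.

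The log2 of each value plus 1 was fitted with limma (3.58.1, R 4.3.3), using moderated statistics with a trend of variance on mean. P-values were adjusted by Benjamini-Hochberg over the 13901 genes passing the filter, with a threshold of 0.05. Each course (untreated and 12 stimulated samples) had an F test and contrasts per time. Stimuli were compared in one fit of all samples. Errors of log2 changes are standard errors, and 95% intervals are unadjusted. The scripts were tested on simulated data. The study's impulse model was not run.

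The members and lists were chosen with earlier results of these data known. All 10 members are named, and from each pathway list the 2 genes with the largest LPS change and the 1 with the largest IL-4 change among those past the F test. Alternatives were other pseudocounts, filters and scalings, a replicate block, sample weights, leaving out each replicate, averaging replicates 2 and 3, and one fit of all samples.

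Whether replicate numbers pair the samples was checked on the deviations from group means over 6827 genes. Samples with the same number correlated in all 108 pairs (0.163 to 0.851), and those with different numbers at -0.750 to 0.615 in 216 pairs. Replicates 2 and 3 lay closer to each other than to replicate 1, and that split alone can give positive values. The check therefore cannot show that the numbers pair the samples, which the labels do not state. The genes most like Relb in pattern are not reported here.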

Additional observations from a re-analysis of the deposited data

Results flagged for a closer look

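For 5 of the 10 genes the difference between LPS and IL-4 itself changed between 0.5 and 4 h, by a test of that change in one limma fit of all 27 samples. The same test was passed by 53.6% of tested genes, so passing does not set the members apart. The LPS minus IL-4 difference on the log2 scale moved by -3.94 for Nfkbid, -2.36 for Nfkbib, -1.37 for Rela, -1.37 for Relb and -1.07 for Nfkbiz. The Relb call was lost without replicate 2 (-1.39, adjusted p = 0.0977) or 3 (-1.23, 0.130). In the LPS samples Nfkbid ranged over 1001 to 1220 at 0.5 h and 95 to 113 at 4 h, and in the IL-4 samples over 32 to 61 and 63 to 73. Nfkbib ranged over 548 to 631 and 142 to 169 with LPS, and over 15 to 30 and 26 to 33 with IL-4. Rela ranged over 262 to 319 and 87 to 115 with LPS, and over 43 to 56 and 44 to 49 with IL-4. Relb ranged over 585 to 735 and 154 to 271 with LPS, and over 53 to 83 and 38 to 67 with IL-4. Nfkbiz ranged over 15807 to 16819 and 3243 to 3694 with LPS, and over 95 to 109 and 34 to 51 with IL-4. The median tested gene changed by -0.01 in this comparison.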

How the results depend on the processing

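Across 12 alternatives, 225 of the counts of genes stayed within 1.5 times their value and 10 did not, and 1974 values of single genes kept their direction and side of the threshold, while 46 no longer passed, 27 newly passed and 17 changed sign. All 10 genes stayed changed over the LPS course under every alternative run. The IL-4 course kept Rel, Nfkb1 and Nfkbiz throughout, and lost Nfkbid without replicate 2 and with replicates 2 and 3 averaged (adjusted p = 0.0525). With replicates 2 and 3 averaged the counts were 13 pathway genes in the IL-4 course (24 as reported), 4 genes at the LPS step from 0.5 to 1 h and 3 at the step from 2 to 4 h. One fit of all samples gave 5 genes at IL-4 4 h in place of 3, adding Nfkbib (0.0484) and Nfkbid (0.0367). Leaving out each replicate gave 13 to 33 pathway genes in the IL-4 course, 4 to 6 genes at the LPS step from 0.5 to 1 h, 2 to 9 at the step from 2 to 4 h and 2 to 4 at IL-4 0.5 h.

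The replicate block changed 4 calls, those of Nfkbid at IL-4 4 h (0.0425), the Nfkbie change in difference (0.0264) and the 2 Rel steps (0.0358 and 0.0138), and no other call of the members. With equal totals the LPS minus IL-4 difference from 0.5 to 4 h moved by -0.02 for Nfkb1, -0.11 for Rel and -0.14 for Nfkbia, small changes with the opposite sign to those reported, and the first LPS step was 0.00 for Rel and -0.02 for Relb, the Rela step from 1 to 2 h -0.07 and Nfkbid at LPS 4 h -0.48. With sample weights Nfkbia moved by -0.03 and the Nfkbib step from 2 to 4 h was -0.07. With median-of-ratios factors the Rela step was -0.02, and with replicates 2 and 3 averaged Nfkb2 moved by 0.02. Leaving out each replicate gave -0.26 to 0.32 for Nfkbia and -0.44 to 0.15 for Nfkb2 in the change of difference, -0.13 to 0.19 for the Nfkbib step from 2 to 4 h, -0.02 at lowest for the first Rel step, and -0.07 to 0.09 for the Rela step from 1 to 2 h, where it was 0.00 without replicate 1. None of these had passed as reported, and the cause was not tested. With a mean of at least 50 required, Nfkb2, Nfkbia, Nfkbib, Nfkbie and Rela gave no IL-4 value. Their own means over the untreated and IL-4 samples were below 50. Depth could not be examined, and the IL-4 intervals of Relb and Nfkbie are wide.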
